A study of Mus musculus with 9 samples.

Results

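The last step of thymic maturation of invariant natural killer T (iNKT) cells was described from WT stage 3 and WT stage 2 libraries, 3 of each and 6 of the 9 RNA libraries of the series. All 6 came from iNKT cells sorted from the thymus of 6-week-old WT C57BL/6 mice. Stage 2 cells carried CD44 at a high level and little NK1.1, stage 3 cells carried both at a high level, and all were sorted as CD24-low cells that bound the CD1d-PBS57 tetramer. The remaining 3 libraries, from Med23-deficient stage 2 cells in which Cd4-Cre deleted the gene, were used only in 1 alternative fit. Values are FPKM, fragments of each gene corrected for its length and for the size of the library, as deposited, and no read counts were used, so that the depth of each library is unknown. Members of 22 gene lists were followed in 4 groups, namely surface receptors, transcription factors, metabolism and signalling, and cytokine, chemokine, Ly49 and AP-1 genes were set aside. Of 20689 genes with an FPKM above 0 in some WT library, 1166 were list members.

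iNKT cells are T cells with a nearly fixed T cell receptor that sees glycolipids on CD1d. They are selected by other thymocytes, a contact that needs SLAM family receptors as well, and the factor PLZF then gives them memory-like behaviour before any infection. Cells called NKT2 and NKT17 make mainly IL-4 or IL-17 and largely lack NK1.1, whereas the NK1.1-bearing stage is dominated by NKT1 cells, which depend on T-bet and IL-15, make interferon-gamma and carry receptors first known from NK cells. A stage 2 gate can therefore hold cells of several subsets together with precursors. In bulk RNA, fewer cells of a type and less RNA per cell cannot be told apart.

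The sorted genes matched the labels. Klrb1c, which encodes NK1.1, measured 16.3, 26.2 and 7.65 FPKM at WT stage 2 and 95.1, 57.3 and 72.7 at WT stage 3. Cd44 measured 33.7, 45.8 and 35.3 FPKM at WT stage 2 and 48.5, 47.7 and 49.1 at WT stage 3, and Cd24a was listed at 0 in 5 of the 6 libraries and at 0.40 FPKM in WT stage 2 replicate 1. These genes chose the cells and are given with no test. The 9 iNKT and T cell receptor markers summed to between 1232 and 1371 FPKM in WT stage 2 and to between 1148 and 1380 FPKM in WT stage 3. Of the 9, 2 were higher and 2 lower without overlap. Zbtb16, which is also on the NKT2 list, fell by the adjusted p. Markers of double-positive thymocytes summed to at most 14.4 FPKM, of B cells to at most 6.53 FPKM, of myeloid cells to at most 20.8 FPKM, of erythroid cells to at most 0.75 FPKM and of thymic stroma to at most 10.2 FPKM in any of the 6 libraries, with overlapping sums between the stages. The 5 markers of NK cells without a T cell receptor that the table holds summed to between 1.47 and 1.5 FPKM in WT stage 2 and to between 12.1 and 23.6 FPKM in WT stage 3. Of these 5, Eomes and Klrg1 stayed below 1 FPKM in every library, and the sum rested mainly on Klre1 and Tyrobp, which are also members of the NK-type receptor list. The part of NK cells in the receptor results was not tested.

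The lists of iNKT subsets and of dividing cells differed between the stages. They were written with earlier results of these data known. The NKT1 list leaves out Cxcr3 and Cxcr6, chemokine receptors tied to NKT1 cells that were not called and are given below. All 10 NKT1 markers were higher in every WT stage 3 library than in every WT stage 2 library, and their sum went from a range of 195 to 262 FPKM to a range of 950.02 to 1003 FPKM. All 9 NKT2 markers were lower without overlap, with sums of 426 to 485 FPKM and of 124 to 168 FPKM, as were 8 of 9 NKT17 markers, with sums of 39.8 to 45.1 FPKM and of 2.6 to 7.11 FPKM. The 16 dividing-cell markers summed to between 110.5 and 133 FPKM in WT stage 2 and to between 35.3 and 58.4 FPKM in WT stage 3, and 13 of them were lower without overlap. Over all genes tested 7.36% were higher and 10.4% lower without overlap. Of the genes called among the lists below, 3 are also NKT1 markers (Il2rb, Klrd1 and Klrk1) and 4 are NKT2 markers (Il17rb, Zbtb16, Icos and Ccr4), and Il1r1, Sdc1 and Nrp1 are NKT17 markers. The part of subset makeup and of division in the results that follow was not tested.

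Of the 1166 list members, 80 passed a limma adjusted p of 0.05, 37 higher and 43 lower in WT stage 3. That is 6.86% of the members, beside 1.67% of all genes tested, where 157 genes (0.759%) rose and 189 (0.914%) fell. Among the 11781 genes with a mean of at least 1 FPKM, 283 were called. The lists were written with earlier results of these data known, so their shares only describe them and were not tested against other genes. Surface receptors had the largest share among the 4 groups, with 45 of 215 members called (20.9%), 24 higher and 21 lower. Transcription factors followed with 13 of 192 (6.77%), 4 higher and 9 lower, and signalling genes with 15 of 395 (3.8%), 9 higher and 6 lower. Metabolism lay near the background, with 7 of 364 members (1.92%), all 7 lower. By the thresholds of the study, a 2-fold change and an unadjusted p of 0.05, the counts were 62, 24, 29 and 12 in the order surface receptors, transcription factors, signalling and metabolism, beside 3.6% of all genes. The unadjusted p used here is limma's, whereas the study took its p from the program Ballgown. The FPKM of the stages did not overlap for any of the 80 members, nor for 17.8% of all genes tested, and 68 of the 80 differed by at least 1 on the log2(FPKM + 1) scale.

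The adjusted calls rested on all 6 libraries. Each of the 80 members kept its sign in all 15 alternative fits. Because their stages did not overlap, only a change of scale or a library-size covariate could have turned a sign. Each kept an unadjusted p of at most 0.00509 with any library left out, but only 8 passed the adjusted p in all 6 fits with 1 library left out. These were Cd7, Slamf7, Il12rb2, Ifngr1, Itga1, Emb, Icos and Chdh. The number of list members called was 37, 48 and 13 without WT stage 2 replicate 1, 2 or 3 and 29, 20 and 10 without WT stage 3 replicate 1, 2 or 3. By the adjusted p it was 0 in a gene-by-gene linear model with library size as a covariate, which shares no spread across genes. That model is called Ballgown-style after the program of the study. By a 2-fold change and an unadjusted p of 0.05 it passed 772 of all genes tested, beside 745 with limma.

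**Figure D1:**
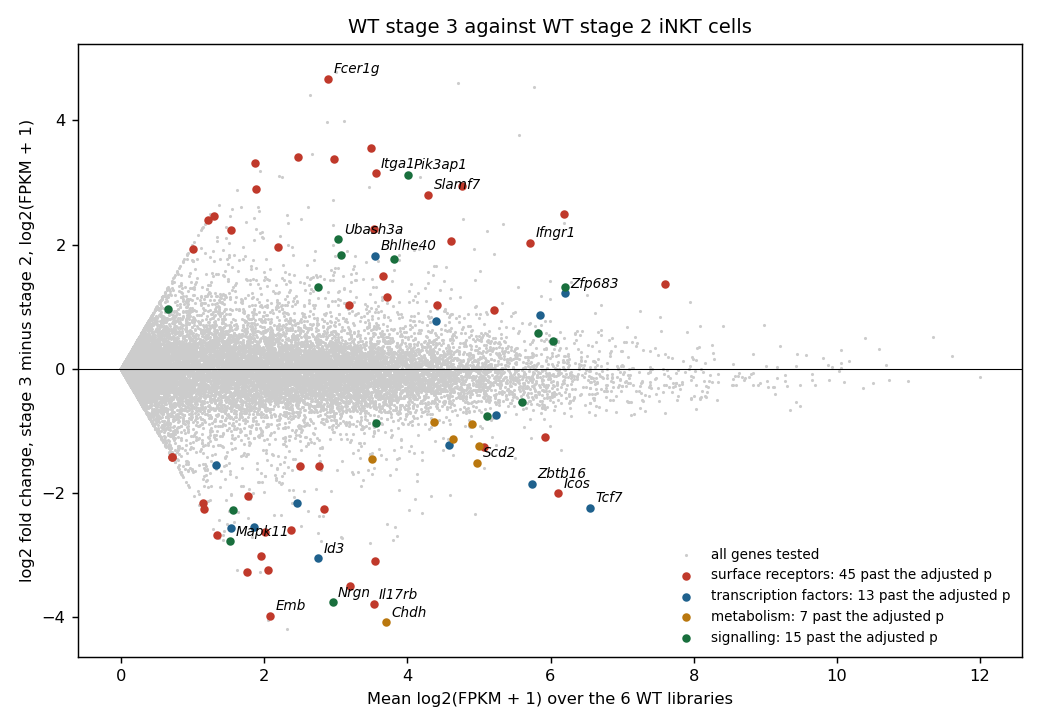
Log2 fold change of WT stage 3 over WT stage 2 (vertical axis, difference of mean log2(FPKM + 1)) against the mean log2(FPKM + 1) of the 6 libraries (horizontal axis), with all genes tested in grey (models with a mean above 12 not drawn) and the 80 called list members coloured by group. The highest of the 80 is the surface receptor gene Fcer1g and the lowest the metabolism gene Chdh, and all 7 metabolism genes lie below 0.

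**Figure D2:**
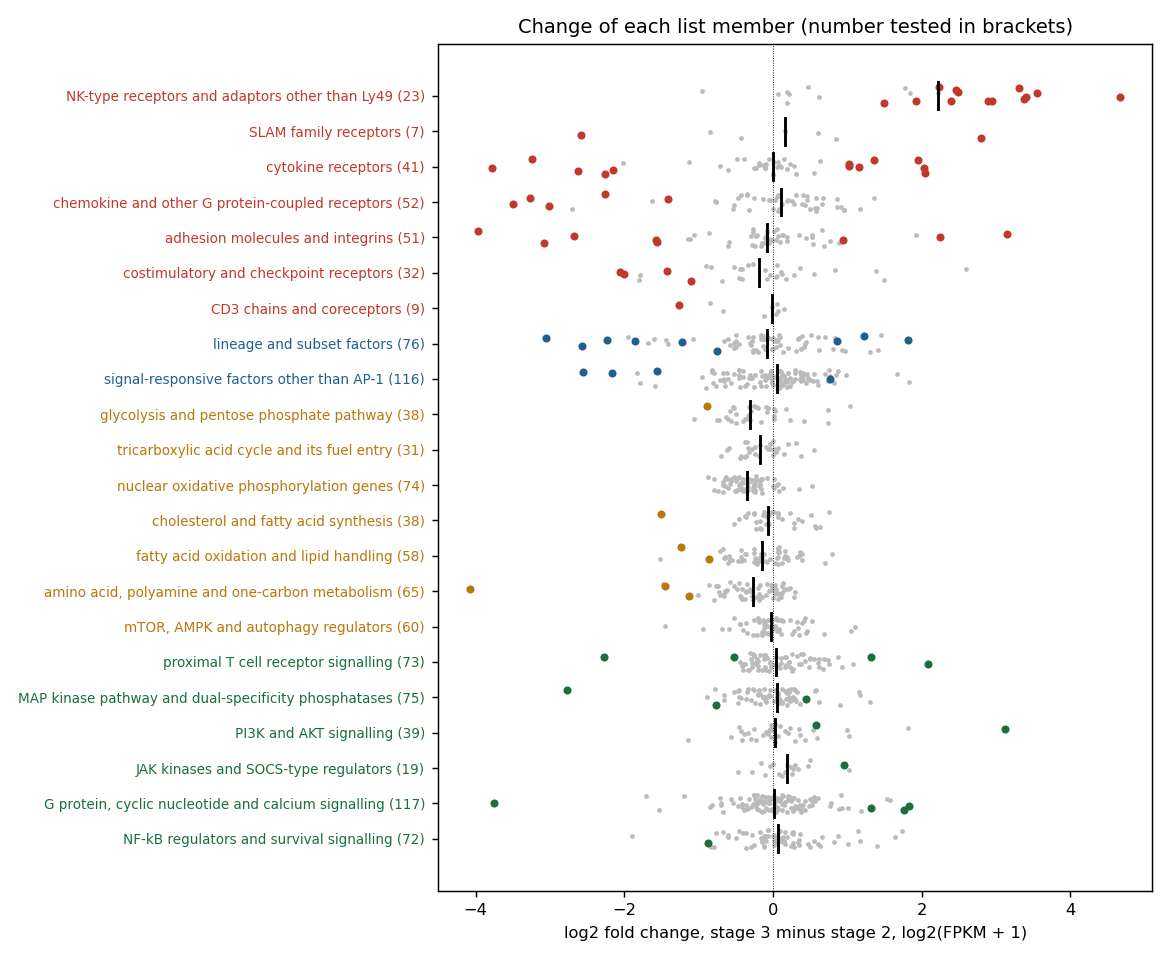
Log2 fold change, on the log2(FPKM + 1) scale, of each tested member of the 22 lists, with members past the adjusted p coloured by group, other members in grey, and the list median as a black bar (points are spread vertically at random within a list). The NK-type receptor list stands at a median of 2.22, and every other list median lies between -0.34 and 0.19.

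NK-type receptors and their adaptors were higher in WT stage 3. Of 23 members tested, Ly49 genes left out, 13 rose and 0 fell by the adjusted p, and the median log2 fold change was 2.22, beside -0.01 over all genes tested. The list holds Klrb1c, which the sort used, and its C-type lectin members Klrb1f, Klrc1, Klrc2, Klrc3, Klrd1, Klre1, Klri2 and Klrk1 lie near each other in the NK gene complex of chromosome 6. Klrd1 encodes CD94, the shared partner of the NKG2 chains, and measured 4.66, 11 and 12.8 FPKM at WT stage 2 and 78, 77.6 and 68.5 at WT stage 3. Klrd1 rose by 2.95 on the log2 scale (SE 0.34, limma adjusted p = 0.023). Klrc1, for the inhibitory NKG2A, measured 1.4, 4.8 and 1.55 FPKM at WT stage 2 and 41.3, 30.2 and 42.2 at WT stage 3. Klrc1 rose by 3.55 on the log2 scale (SE 0.37, limma adjusted p = 0.0185). Klrc2, for the activating NKG2C, measured 0.88, 0.79 and 0.46 FPKM at WT stage 2 and 11.3, 18.5 and 23.1 at WT stage 3. Klrc2 rose by 3.4 on the log2 scale (SE 0.29, limma adjusted p = 0.0118). Klrc3, the third NKG2 gene called, measured 0.48, 0 and 0.67 FPKM at WT stage 2 and 4.99, 10.2 and 13.9 at WT stage 3. Klrc3 rose by 2.89 on the log2 scale (SE 0.41, limma adjusted p = 0.0383). In each of these 4 genes the lowest WT stage 3 library was several times above the highest WT stage 2 library. Klrc1, Klrc2 and Klrc3 are close copies of each other, and how the quantification shared their reads is uncertain.

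Klrk1 (ENSMUSG00000030149, mm10 chromosome 6, 129610323 to 129623864, minus strand), which encodes the activating receptor NKG2D, measured 1.11, 1.56 and 1.69 FPKM at WT stage 2 and 17.5, 28.7 and 28.4 at WT stage 3. Klrk1 rose by 3.37 on the log2 scale (SE 0.23, limma adjusted p = 0.00665). Klre1, whose product pairs with KLRI chains, was listed at 0, 0 and 0.58 FPKM at WT stage 2 and 9.83, 14.1 and 8.47 at WT stage 3. Klre1 rose by 3.31 on the log2 scale (SE 0.30, limma adjusted p = 0.0139). Klri2, for a KLRI chain, was listed at 0.08, 0 and 0.07 FPKM at WT stage 2 and 6.26, 3.11 and 5.42 at WT stage 3. Klri2 rose by 2.46 on the log2 scale (SE 0.29, limma adjusted p = 0.0238). Klri1, for the other chain, was listed at 0 in 4 of the 6 libraries. Klrb1f, another NKR-P1 gene, measured 0.21, 0 and 0.97 FPKM at WT stage 2 and 4.12, 6.01 and 5.82 at WT stage 3. Klrb1f rose by 2.23 on the log2 scale (SE 0.33, limma adjusted p = 0.042). The neighbouring Klrb1a, at 1.5, 4.4 and 1.15 FPKM at WT stage 2 and 0, 1.49 and 0.62 at WT stage 3, overlapped between the stages (limma adjusted p = 0.49).

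Among adaptors that carry signals of such receptors Fcer1g was called and Tyrobp and Hcst were not. Fcer1g (ENSMUSG00000058715, mm10 chromosome 1, 171229572 to 171234365, minus strand) encodes an adaptor with an immunoreceptor tyrosine-based activation motif and had the largest change of any list member, from 0.30, 0 and 1.48 FPKM to 38.8, 41.3 and 30.5 FPKM. Fcer1g rose by 4.67 on the log2 scale (SE 0.35, limma adjusted p = 0.00843). Its partner Fcgr3, the low-affinity IgG receptor CD16, was listed at 0.09, 0 and 0 FPKM at WT stage 2 and 2.51, 3.86 and 2.53 at WT stage 3. Fcgr3 rose by 1.93 on the log2 scale (SE 0.22, limma adjusted p = 0.023). Tyrobp, which encodes DAP12, was listed at 0 FPKM in every WT stage 2 library and 1.15, 5.78 and 2.14 at WT stage 3 (limma adjusted p = 0.123). Hcst, which encodes DAP10, the adaptor of NKG2D, was present in both stages at 25.2, 29.3 and 24.4 FPKM at WT stage 2 and 45.9, 35.2 and 30.4 at WT stage 3 (limma adjusted p = 0.301). WT stage 2 cells thus had Hcst well above 1 FPKM in every library while Fcer1g was above 1 FPKM in 1 library and Tyrobp in none.

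Cd7, Cd160 and Cd244, list members outside the C-type lectin family, rose as well. Cd7, a T and NK cell glycoprotein, was the most abundant riser of the list, with 26.4, 36.1 and 27.6 FPKM at WT stage 2 and 150.08, 207 and 164 at WT stage 3. Cd7 rose by 2.49 on the log2 scale (SE 0.17, limma adjusted p = 0.00651). Cd160, which binds HVEM and MHC class I molecules, measured 7.17, 6.04 and 6.46 FPKM at WT stage 2 and 23.2, 18.1 and 19.7 at WT stage 3. Cd160 rose by 1.49 on the log2 scale (SE 0.13, limma adjusted p = 0.0122). Cd244, the 2B4 receptor for CD48, was listed at 0, 0 and 0.04 FPKM at WT stage 2 and 3.65, 4.88 and 4.51 at WT stage 3. Cd244 rose by 2.39 on the log2 scale (SE 0.21, limma adjusted p = 0.0122). Cd226, the activating receptor DNAM-1, overlapped between the stages at 38.7, 33.4 and 53.2 FPKM at WT stage 2 and 58.9, 38.4 and 48 at WT stage 3 (limma adjusted p = 0.695).

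Upstream sequence was read for the called members to see whether letters of known factor sites recur among them. RefSeq windows (GRCm38.p6, the 250 bases before a start) were at hand for 24 of the 37 risers and 31 of the 43 fallers, and for 10354 of all genes tested. The RUNX letters TGTGGTT, or AACCACA on the other strand, lay in the window of 4 of 24 risers (16.7%), which were Cd160, Klre1, Klrk1 and Runx3, in 0 of 31 fallers, and for 4.24% of those 10354 genes. The T-box letters GGTGTGA or TCACACC lay upstream of 1 riser and 1 faller (3.53% of all genes with a window). The TCF/LEF letters CTTTGAT or ATCAAAG lay upstream of 0 risers and of Emb among the fallers (2.66%). The KLF letters CACACCC or GGGTGTG lay upstream of 2 of 24 risers (8.33%) and 5 of 31 fallers (16.1%), beside 8.48% of all genes with a window. Those fallers were Id3, Nrgn, Sdc1, Tcf7 and Themis, and their stretches are not shown. KLF letters can overlap RUNX and T-box letters, as they do in both windows of Cd160. The stretches that hold RUNX letters, and that of Emb, are shown 5′ to 3′ along the gene, because they carry these counts, with the matched letters in capitals. Runx3 has a second copy right after the first, left in lower case, and Cd160 has a window at each of its starts. A match describes the letters alone, and no test was made of it.
Klrk1 (chr6:129623957-129624023, minus strand): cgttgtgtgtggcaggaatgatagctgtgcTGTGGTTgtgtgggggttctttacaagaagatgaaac
Klre1 (chr6:129577963-129578020, plus strand): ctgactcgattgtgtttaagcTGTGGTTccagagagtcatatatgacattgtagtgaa
Cd160 (chr3:96814586-96814652, minus strand): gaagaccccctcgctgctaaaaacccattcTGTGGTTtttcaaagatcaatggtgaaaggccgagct
Cd160 (chr3:96829392-96829458, minus strand): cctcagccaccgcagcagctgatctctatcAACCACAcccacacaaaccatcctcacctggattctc
Runx3 (chr4:135120480-135120546, plus strand): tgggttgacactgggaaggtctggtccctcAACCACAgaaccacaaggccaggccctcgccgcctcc
Emb (chr13:117220387-117220453, plus strand): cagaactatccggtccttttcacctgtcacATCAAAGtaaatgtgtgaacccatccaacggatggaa

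SLAM family receptors, through which thymocytes touch each other during iNKT selection, split by member. Slamf7, also called CRACC, rose from 6.74, 7.62 and 5.13 FPKM to 52, 54.1 and 46.2 FPKM. Slamf7 rose by 2.8 on the log2 scale (SE 0.15, limma adjusted p = 0.00368). Slamf6, or Ly108, fell from 11.3, 9.75 and 14.7 FPKM to 0.84, 1.34 and 1.23 FPKM. Slamf6 fell by 2.59 on the log2 scale (SE 0.21, limma adjusted p = 0.0117). Of 7 members tested these were the only calls. Slamf1 was low in both stages at 1.3, 3.31 and 2.73 FPKM at WT stage 2 and 0.86, 0.88 and 0.82 at WT stage 3 and Cd84 measured 26.7, 29.9 and 35.4 FPKM at WT stage 2 and 20.03, 22.4 and 24.6 at WT stage 3, lower without overlap but not past the adjusted p (limma adjusted p = 0.296 and limma adjusted p = 0.233). Cd48, the ligand of 2B4, measured 15.7, 18.4 and 22.9 FPKM at WT stage 2 and 43.5, 30.4 and 31 at WT stage 3 (limma adjusted p = 0.118). Ly9 overlapped between the stages at 40.6, 54 and 37.9 FPKM at WT stage 2 and 55.2, 46.3 and 45.6 at WT stage 3.

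Cytokine receptors changed in both directions, with 7 of 41 members higher, 5 lower and a median change of 0.00 on the log2 scale. Il2rb, the beta chain shared by the IL-2 and IL-15 receptors, was the most abundant of the risers, with 103, 125 and 134 FPKM at WT stage 2 and 302, 283 and 348 at WT stage 3. Il2rb rose by 1.36 on the log2 scale (SE 0.14, limma adjusted p = 0.0171). Its partner Il2rg overlapped between the stages at 128, 151 and 117.15 FPKM at WT stage 2 and 146, 116 and 118 at WT stage 3, as did Il7r at 127, 168 and 160.02 FPKM at WT stage 2 and 165, 161 and 235 at WT stage 3. Il12rb2, the signalling chain for IL-12, measured 10.3, 10.5 and 12.4 FPKM at WT stage 2 and 50.3, 45 and 51.6 at WT stage 3, a log2 difference of 2.05 (SE 0.11, limma adjusted p = 0.00368), whereas the second chain Il12rb1 overlapped at 12.1, 7.91 and 14.4 FPKM at WT stage 2 and 9.34, 5.9 and 6.22 at WT stage 3. Il18rap, the accessory chain for IL-18, measured 12.9, 15.6 and 13.5 FPKM at WT stage 2 and 24.3, 30.8 and 34.2 at WT stage 3, a log2 difference of 1.03 (SE 0.15, limma adjusted p = 0.0412), and the binding chain Il18r1 overlapped at 52.8, 83.4 and 91.9 FPKM at WT stage 2 and 30.6, 50.8 and 57 at WT stage 3. IL-15, IL-12 and IL-18 are cytokines that drive NK cells and NKT1 cells. For IL-12 and IL-18, 1 chain of the receptor thus rose and the other chain was not called. For IL-15 the beta chain rose and Il2rg was not called, and the alpha chain of its receptor is not given here.

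The chains of the interferon-gamma receptor moved apart. Ifngr1 (ENSMUSG00000020009, mm10 chromosome 10, 19591949 to 19610229, plus strand), the ligand-binding chain, measured 24.6, 24.6 and 25.9 FPKM at WT stage 2 and 106, 89.9 and 121 at WT stage 3. Ifngr1 rose by 2.03 on the log2 scale (SE 0.12, limma adjusted p = 0.00442). Ifngr2 (ENSMUSG00000022965, mm10 chromosome 16, 91547072 to 91565169, plus strand), the chain required for signalling, was listed at 4.78, 2.41 and 5.01 FPKM at WT stage 2 and 0, 0 and 0.07 at WT stage 3. Ifngr2 fell by 2.26 on the log2 scale (SE 0.29, limma adjusted p = 0.0291). Every WT stage 3 library was above every WT stage 2 library for Ifngr1 and below for Ifngr2. Both chains of the IL-10 receptor rose, Il10ra from 0.70, 2.03 and 1.42 FPKM to 8.63, 6.8 and 8.63 FPKM, a log2 difference of 1.95 (SE 0.27, limma adjusted p = 0.0346), and Il10rb, which other cytokine receptors share, from 7.23, 7.89 and 8.39 FPKM to 20.1, 18.4 and 17.8 FPKM. Il10rb rose by 1.16 on the log2 scale (SE 0.11, limma adjusted p = 0.0146). Il4ra, which binds IL-4, rose from 4.77, 6.73 and 4.89 FPKM to 13, 11 and 12.2 FPKM. Il4ra rose by 1.02 on the log2 scale (SE 0.16, limma adjusted p = 0.0473).

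Receptors that fell include those known from NKT2 and NKT17 cells. Il6ra (ENSMUSG00000027947, mm10 chromosome 3, 89864059 to 89913196, minus strand), the binding chain for IL-6, measured 14.2, 9.29 and 12.4 FPKM at WT stage 2 and 0.59, 0.33 and 0.17 at WT stage 3. Il6ra fell by 3.24 on the log2 scale (SE 0.24, limma adjusted p = 0.00843). Il17rb, the IL-25 receptor chain and an NKT2 marker, measured 49.6, 22.6 and 64.7 FPKM at WT stage 2 and 2.4, 2.54 and 1.5 at WT stage 3. Il17rb fell by 3.78 on the log2 scale (SE 0.39, limma adjusted p = 0.0186). Il1r1, the IL-1 receptor of NKT17 cells, measured 2.23, 4.23 and 5.01 FPKM at WT stage 2 and 0.03, 0.12 and 0 at WT stage 3. Il1r1 fell by 2.15 on the log2 scale (SE 0.30, limma adjusted p = 0.0344). Eng, or endoglin, a coreceptor of the TGF-beta family, measured 13, 9.5 and 5.79 FPKM at WT stage 2 and 0.91, 0.47 and 0.53 at WT stage 3. Eng fell by 2.62 on the log2 scale (SE 0.32, limma adjusted p = 0.0265). In all 4 genes no WT stage 3 library reached the lowest WT stage 2 library. The NKT17 receptors Il23r and Il17re fell short of the adjusted p, with 5.48, 3.13 and 6.36 FPKM at WT stage 2 and 1.6, 0.14 and 0 at WT stage 3 for the former, a log2 difference of -2.02 (SE 0.45, limma adjusted p = 0.113), and 1.76, 0.62 and 1.31 FPKM at WT stage 2 and 0 in every WT stage 3 library for the latter (limma adjusted p = 0.074).

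**Figure D3:**
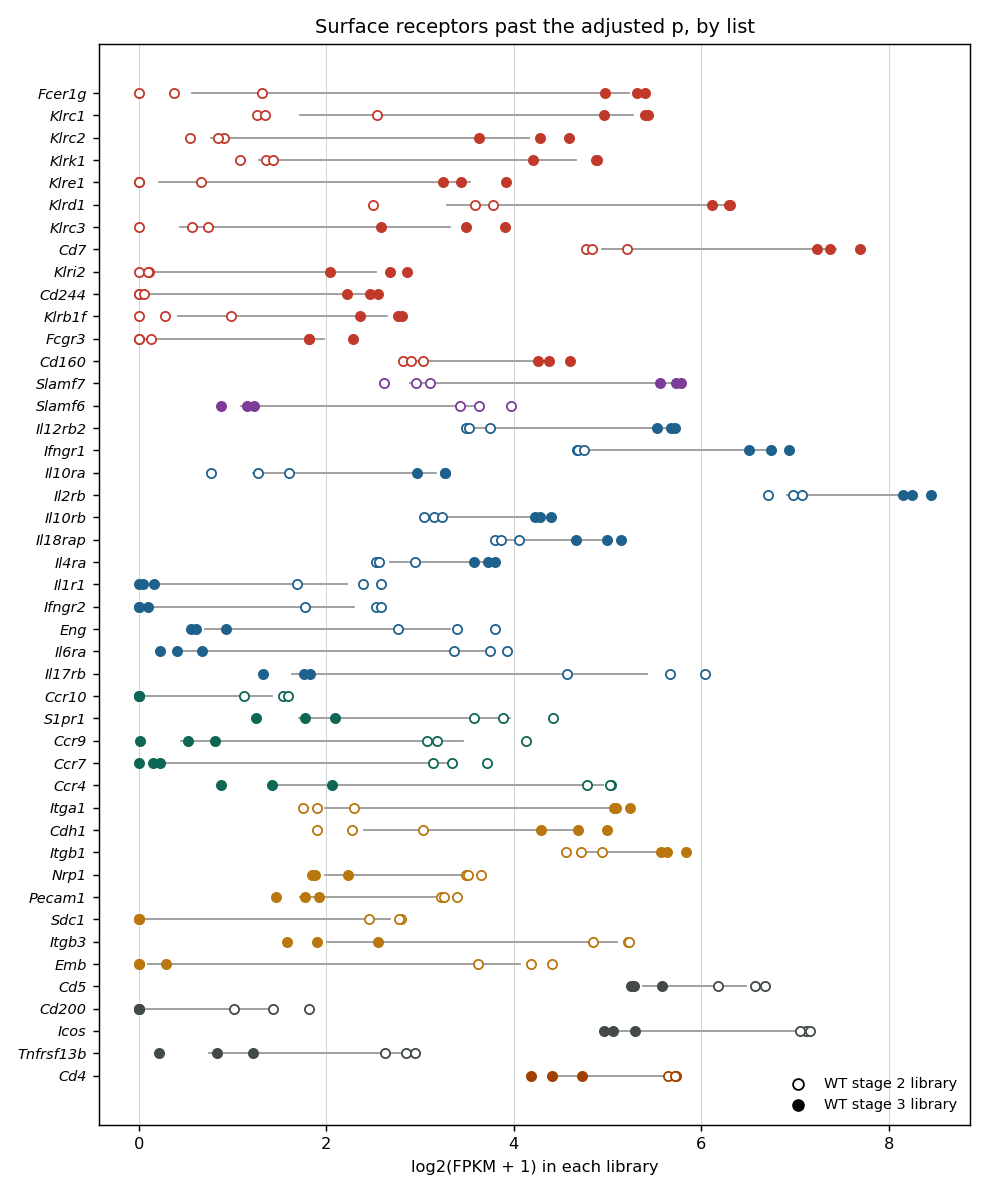
Level of the 45 surface receptors past the adjusted p in each library, as log2(FPKM + 1) on the horizontal axis, with WT stage 2 libraries as open circles, WT stage 3 libraries as filled circles and a line between the stage means. Genes are ordered and coloured by list, from NK-type receptors at the top (13 genes, all higher) to Cd4 at the bottom, and open and filled circles do not overlap for any gene.

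Chemokine and other G protein-coupled receptors had 5 of 52 members lower (9.62%) and 0 higher by the adjusted p, and 24 members had an unadjusted p under 0.05, 15 higher and 9 lower, beside 7.31% higher and 10.8% lower of all genes with a mean of at least 1 FPKM. Ccr7, which draws T cells to lymph nodes and the thymic medulla, was listed at 9.12, 7.83 and 12.1 FPKM at WT stage 2 and 0, 0.11 and 0.17 at WT stage 3. Ccr7 fell by 3.27 on the log2 scale (SE 0.24, limma adjusted p = 0.00843). Ccr4, known from NKT2 cells, measured 31.9, 26.5 and 31.5 FPKM at WT stage 2 and 0.84, 3.16 and 1.67 at WT stage 3. Ccr4 fell by 3.5 on the log2 scale (SE 0.30, limma adjusted p = 0.0121). Ccr9, the receptor for CCL25 of thymus and gut, measured 7.4, 8.06 and 16.5 FPKM at WT stage 2 and 0.75, 0.01 and 0.44 at WT stage 3. Ccr9 fell by 3.01 on the log2 scale (SE 0.38, limma adjusted p = 0.0285). S1pr1, the sphingosine-1-phosphate receptor needed to leave the thymus, measured 20.4, 10.9 and 13.7 FPKM at WT stage 2 and 3.27, 1.38 and 2.41 at WT stage 3. S1pr1 fell by 2.25 on the log2 scale (SE 0.31, limma adjusted p = 0.0343). Ccr10 was listed at 1.9, 1.18 and 2.01 FPKM at WT stage 2 and 0 in every WT stage 3 library (limma adjusted p = 0.0286). Each of these 5 receptors was lower in every WT stage 3 library than in any WT stage 2 library.

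Cxcr3 and Cxcr6, chemokine receptors tied to NKT1 cells, were not called. Cxcr3 was higher in every WT stage 3 library, at 30.2, 36 and 28.6 FPKM at WT stage 2 and 51.4, 46.6 and 43.2 at WT stage 3, but did not pass the adjusted p. Cxcr3 had a log2 fold change of 0.56 (SE 0.12, limma adjusted p = 0.0938). Cxcr6 overlapped between the stages at 78.4, 63.6 and 69.6 FPKM at WT stage 2 and 94.5, 30.1 and 57.8 at WT stage 3 (limma adjusted p = 0.717), and WT stage 3 replicates 1 and 2 were its highest and lowest libraries. P2rx7, an ATP-gated channel set in this list, measured 6.72, 5.44 and 14.1 FPKM at WT stage 2 and 1.15, 0.22 and 0.03 at WT stage 3 (limma adjusted p = 0.0511).

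Adhesion molecules changed in both directions, 3 of 51 higher and 5 lower. Itga1 (ENSMUSG00000042284, mm10 chromosome 13, 114958079 to 115101964, minus strand), the CD49a chain of a collagen-binding integrin, measured 2.37, 3.9 and 2.73 FPKM at WT stage 2 and 33.1, 32.6 and 36.8 at WT stage 3. Itga1 rose by 3.15 on the log2 scale (SE 0.17, limma adjusted p = 0.00368). Its partner Itgb1, the beta chain of many integrins, measured 29.7, 25.3 and 22.5 FPKM at WT stage 2 and 56, 48.7 and 46.7 at WT stage 3. Itgb1 rose by 0.94 on the log2 scale (SE 0.13, limma adjusted p = 0.0346). Both chains of this integrin were thus higher in every WT stage 3 library. Cdh1, or E-cadherin, measured 3.85, 7.17 and 2.74 FPKM at WT stage 2 and 18.6, 24.7 and 30.9 at WT stage 3. Cdh1 rose by 2.25 on the log2 scale (SE 0.33, limma adjusted p = 0.0412). Itgb3, the beta chain of the vitronectin receptor, went the other way, at 36.2, 27.6 and 36.6 FPKM at WT stage 2 and 1.99, 2.72 and 4.88 at WT stage 3. Itgb3 fell by 3.09 on the log2 scale (SE 0.27, limma adjusted p = 0.0122).

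Emb (ENSMUSG00000021728, mm10 chromosome 13, 117220625 to 117274098, plus strand), or embigin, a glycoprotein that accompanies monocarboxylate transporters, was listed at 17.1, 11.3 and 20.2 FPKM at WT stage 2 and 0, 0.22 and 0 at WT stage 3 and had the largest decrease among surface receptors. Emb fell by 3.97 on the log2 scale (SE 0.27, limma adjusted p = 0.00651). Pecam1, also called CD31, measured 8.31, 9.52 and 8.58 FPKM at WT stage 2 and 1.76, 2.8 and 2.42 at WT stage 3, a log2 difference of -1.57 (SE 0.18, limma adjusted p = 0.0239), and Nrp1, or neuropilin-1, measured 11.6, 10.2 and 10.4 FPKM at WT stage 2 and 3.71, 2.69 and 2.6 at WT stage 3. Nrp1 fell by 1.56 on the log2 scale (SE 0.17, limma adjusted p = 0.019). Sdc1, syndecan-1, a surface mark of NKT17 cells, was listed at 5.94, 4.49 and 5.84 FPKM at WT stage 2 and 0 in every WT stage 3 library (limma adjusted p = 0.0115). All 4 were lower in each WT stage 3 library.

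Among costimulatory and checkpoint receptors 4 of 32 members fell and 0 rose by the adjusted p. Icos (ENSMUSG00000026009, mm10 chromosome 1, 60977927 to 61000320, plus strand), the inducible costimulator that iNKT cells carry early, measured 138, 132 and 142 FPKM at WT stage 2 and 32.3, 38.1 and 30.2 at WT stage 3, a log2 difference of -2.01 (SE 0.10, limma adjusted p = 0.00368), with libraries of a stage close together. Cd5, a damper of T cell receptor signals, measured 101, 71.3 and 94.4 FPKM at WT stage 2 and 47, 37.2 and 38 at WT stage 3. Cd5 fell by 1.1 on the log2 scale (SE 0.16, limma adjusted p = 0.042). Tnfrsf13b, which encodes TACI, measured 6.23, 5.15 and 6.68 FPKM at WT stage 2 and 0.16, 0.78 and 1.32 at WT stage 3, a log2 difference of -2.05 (SE 0.32, limma adjusted p = 0.0445), and Cd200 was listed at 2.51, 1.02 and 1.7 FPKM at WT stage 2 and 0 in every WT stage 3 library (limma adjusted p = 0.0497). Pdcd1, for PD-1, was lower without overlap at 31.4, 30.2 and 33.3 FPKM at WT stage 2 and 6.22, 14.4 and 6.44 at WT stage 3, a log2 difference of -1.8 (SE 0.30, limma adjusted p = 0.0556), and Cd28 at 35.2, 39.5 and 48.4 FPKM at WT stage 2 and 23.9, 26.3 and 24.3 at WT stage 3. Cd28 had a log2 fold change of -0.69 (SE 0.13, limma adjusted p = 0.074). Cd69, higher without overlap, measured 1.72, 4.69 and 3.4 FPKM at WT stage 2 and 9.21, 7.87 and 15.9 at WT stage 3, a log2 difference of 1.5 (SE 0.37, limma adjusted p = 0.135), and Tigit was listed at 0, 0 and 1.19 FPKM at WT stage 2 and 5.26, 4.78 and 12.4 at WT stage 3. Tigit had a log2 fold change of 2.6 (SE 0.48, limma adjusted p = 0.0703). The last 4 were not called.

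The CD3 chains of the T cell receptor complex were not called. Of 9 CD3 chains and coreceptors, Cd4 alone was called, at 51.9, 49 and 51.8 FPKM at WT stage 2 and 17.2, 25.4 and 20.2 at WT stage 3. Cd4 fell by 1.26 on the log2 scale (SE 0.15, limma adjusted p = 0.0237). Cd3e overlapped between the stages at 122.89, 133 and 116 FPKM at WT stage 2 and 138, 129 and 121 at WT stage 3, with a log2 difference of 0.06 (SE 0.09, limma adjusted p = 0.79), and Cd3d and Cd3g overlapped too. Cd247, the zeta chain of the complex, measured 27.7, 30.5 and 29.6 FPKM at WT stage 2 and 17.8, 18.4 and 12 at WT stage 3 and was lower without overlap but not called. Cd247 had a log2 fold change of -0.85 (SE 0.17, limma adjusted p = 0.085). Cd8a stayed under 2 FPKM in every library.

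Lineage and subset factors held 9 calls among 76 members, 3 higher and 6 lower, and a median of -0.08 on the log2 scale. Zbtb16 (ENSMUSG00000066687, mm10 chromosome 9, 48654297 to 48836222, minus strand) encodes PLZF, the factor that directs the iNKT lineage, and measured 112, 88 and 103 FPKM at WT stage 2 and 22.7, 33.4 and 26.4 at WT stage 3. Zbtb16 fell by 1.85 on the log2 scale (SE 0.17, limma adjusted p = 0.0122). Tcf7, for TCF1, a Wnt-pathway partner of early T cells, measured 244, 173 and 195 FPKM at WT stage 2 and 35.1, 52.6 and 40.3 at WT stage 3. Tcf7 fell by 2.23 on the log2 scale (SE 0.19, limma adjusted p = 0.0118). Its relative Lef1 measured 35, 32 and 40.8 FPKM at WT stage 2 and 14.8, 11.7 and 18.3 at WT stage 3. Lef1 fell by 1.22 on the log2 scale (SE 0.18, limma adjusted p = 0.0408). Bcl11b, which keeps T cell identity, measured 48.9, 45.1 and 49.9 FPKM at WT stage 2 and 31.6, 26.6 and 26.4 at WT stage 3. Bcl11b fell by 0.75 on the log2 scale (SE 0.10, limma adjusted p = 0.0342). These 4 factors of T cell development were lower in every WT stage 3 library and yet stayed above 10 FPKM in each.

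Id3 (ENSMUSG00000007872, mm10 chromosome 4, 136143497 to 136145755, plus strand), an inhibitor of E proteins induced by T cell receptor signals, fell furthest of the factors, from 18.9, 14.2 and 23.2 FPKM to 1.75, 2.05 and 0.54 FPKM. Id3 fell by 3.05 on the log2 scale (SE 0.32, limma adjusted p = 0.0188). Its relative Id2, needed by NKT1 cells, was the most abundant factor of the list, at 259, 287 and 254 FPKM at WT stage 2 and 482, 413 and 404 at WT stage 3, higher without overlap but short of the adjusted p. Id2 had a log2 fold change of 0.70 (SE 0.11, limma adjusted p = 0.0515). Rora, a nuclear receptor, and the NKT17 marker Sox13 were lower without overlap and not called, with log2 fold changes of -1.94 (SE 0.41, limma adjusted p = 0.0951) and -1.44 (SE 0.44, limma adjusted p = 0.231).

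Zfp683 (ENSMUSG00000049410, mm10 chromosome 4, 134053838 to 134058996, plus strand) encodes Hobit, a factor of resident lymphocytes and NKT cells, and measured 47.9, 46 and 48.2 FPKM at WT stage 2 and 124, 111 and 101 at WT stage 3. Zfp683 rose by 1.22 on the log2 scale (SE 0.10, limma adjusted p = 0.01). Bhlhe40, a repressor that favours interferon-gamma in T cells, measured 4.19, 7.32 and 4.64 FPKM at WT stage 2 and 19.6, 24.5 and 19.3 at WT stage 3. Bhlhe40 rose by 1.82 on the log2 scale (SE 0.21, limma adjusted p = 0.0239). Runx3, a factor of cytotoxic lineages whose own window holds RUNX letters, measured 37.5, 50.1 and 38.8 FPKM at WT stage 2 and 76.1, 75.8 and 79.1 at WT stage 3. Runx3 rose by 0.87 on the log2 scale (SE 0.12, limma adjusted p = 0.0399). WT stage 2 libraries already had all 3 genes, at 4 FPKM or more, and each WT stage 3 library lay above them. Tbx21, which encodes T-bet, measured 37.1, 30.5 and 20.4 FPKM at WT stage 2 and 90.7, 62 and 66.9 at WT stage 3, a log2 difference of 1.31 (SE 0.25, limma adjusted p = 0.0742), higher without overlap but not past the adjusted p. Eomes, its relative in NK cells, was listed at 0 in 5 of 6 libraries and at 0.24 FPKM in WT stage 2 replicate 1. Gata3, known from NKT2 cells, differed little at 35.8, 38.1 and 42.5 FPKM at WT stage 2 and 35.3, 31.1 and 33.9 at WT stage 3 (limma adjusted p = 0.449).

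Factors that respond to signals, AP-1 genes set aside, held 1 riser and 3 fallers among 116 members (3.45%), beside 1.67% of all genes tested. Irf4, induced by T cell receptor signals, measured 7.04, 6.29 and 10.3 FPKM at WT stage 2 and 0.08, 1.01 and 0.52 at WT stage 3. Irf4 fell by 2.55 on the log2 scale (SE 0.32, limma adjusted p = 0.0286). Myb, a factor of progenitors and dividing cells, measured 10.8, 11.3 and 9.8 FPKM at WT stage 2 and 1.29, 3.32 and 0.78 at WT stage 3. Myb fell by 2.16 on the log2 scale (SE 0.34, limma adjusted p = 0.0473). Nr1d1, for REV-ERB-alpha of the circadian clock, measured 3.19, 2.85 and 3.95 FPKM at WT stage 2 and 0.56, 0.21 and 0.67 at WT stage 3. Nr1d1 fell by 1.55 on the log2 scale (SE 0.25, limma adjusted p = 0.0473). Cebpb rose from 16.6, 14.8 and 14 FPKM to 24.2, 27.2 and 28.4 FPKM. Cebpb rose by 0.77 on the log2 scale (SE 0.11, limma adjusted p = 0.0373). Egr2, which iNKT cells need and which T cell receptor signals induce, was lower without overlap at 11.8, 8.63 and 10.4 FPKM at WT stage 2 and 5.13, 6.54 and 3.66 at WT stage 3 and not called. Egr2 had a log2 fold change of -0.90 (SE 0.22, limma adjusted p = 0.137). Stat4, which acts below the IL-12 receptor, was higher without overlap at 3.76, 8.79 and 9.35 FPKM at WT stage 2 and 28.7, 24.2 and 28.1 at WT stage 3. Stat4 had a log2 fold change of 1.83 (SE 0.31, limma adjusted p = 0.0561). Myc overlapped between the stages at 23.4, 19.6 and 15.6 FPKM at WT stage 2 and 23.1, 23.3 and 20.01 at WT stage 3, and Klf2, which controls S1pr1, measured 24.6, 27.5 and 27.4 FPKM at WT stage 2 and 27.8, 35.2 and 41.8 at WT stage 3 (limma adjusted p = 0.401).

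**Figure D4:**
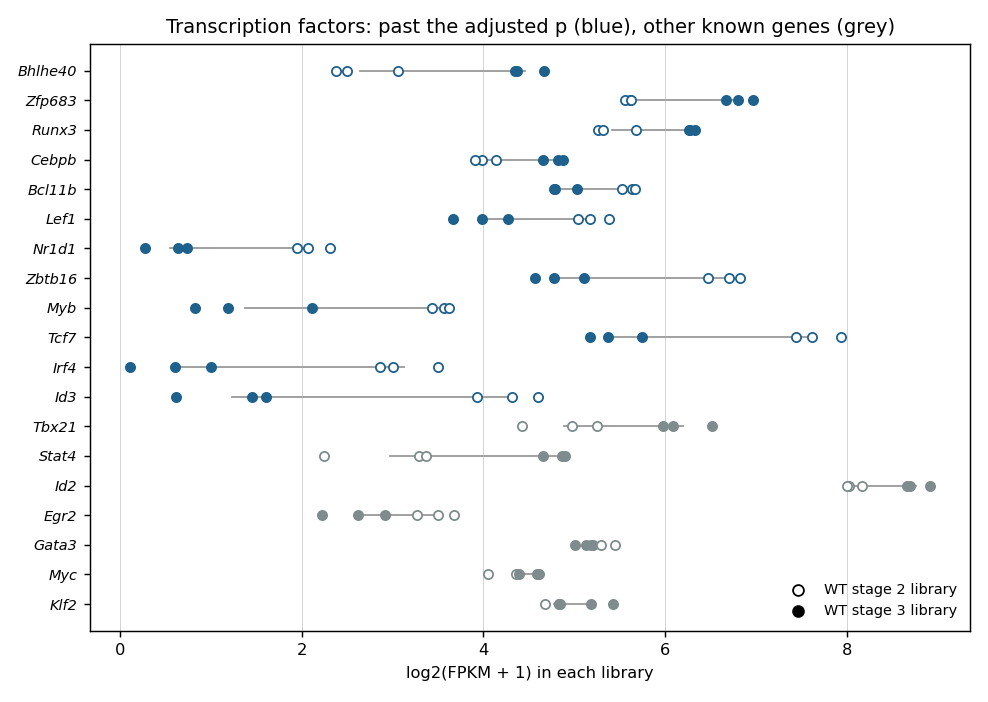
Level of 12 transcription factors past the adjusted p (blue) and of 7 other known factors (grey) in each library, as log2(FPKM + 1) on the horizontal axis, with WT stage 2 libraries as open circles and WT stage 3 libraries as filled circles and a line between the stage means. Of the blue factors the first 4 lie higher in WT stage 3 and the other 8 lower, and Myc alone among the grey ones mixes open and filled circles.

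In metabolism single large changes were few and lower. Chdh (ENSMUSG00000015970, mm10 chromosome 14, 30009023 to 30040466, plus strand), choline dehydrogenase of mitochondria, which makes betaine, fell from 60.5, 43.5 and 54.2 FPKM to 2.83, 2.44 and 1.41 FPKM. Chdh fell by 4.07 on the log2 scale (SE 0.22, limma adjusted p = 0.00368). Phgdh, the first enzyme of serine synthesis from glycolysis, measured 38.5, 37.8 and 31.9 FPKM at WT stage 2 and 15.4, 19.7 and 13.1 at WT stage 3. Phgdh fell by 1.13 on the log2 scale (SE 0.16, limma adjusted p = 0.0404). Ass1, which joins citrulline and aspartate on the way to arginine, measured 17.5, 15.1 and 21.2 FPKM at WT stage 2 and 4.42, 8.07 and 5.51 at WT stage 3. Ass1 fell by 1.46 on the log2 scale (SE 0.23, limma adjusted p = 0.0472). These 3 are the calls among 65 genes of amino acid, polyamine and one-carbon metabolism (4.62%, beside 1.67% of all genes tested). The list had a median log2 fold change of -0.26, with 23 members (35.4%) below and 1 above without overlap. Of all genes with a mean of at least 1 FPKM, 14.5% were below and 9.95% above without overlap, and 7.31% were higher and 10.8% lower at an unadjusted p under 0.05. In the amino acid list 21 members had an unadjusted p under 0.05 and 20 of them were lower, among them Mthfd2 and Shmt2 of mitochondrial one-carbon metabolism with log2 fold changes of -0.65 (SE 0.15, limma adjusted p = 0.117) and -0.80 (SE 0.21, limma adjusted p = 0.151).

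Lipid genes held 3 calls, 2.63% of the synthesis list and 3.45% of the oxidation and handling list, beside 1.67% of all genes tested. Scd2, a stearoyl-CoA desaturase that makes monounsaturated fatty acids, measured 57.4, 45.6 and 53.9 FPKM at WT stage 2 and 19.6, 15.7 and 17.8 at WT stage 3, a log2 difference of -1.51 (SE 0.13, limma adjusted p = 0.0118), the single call among 38 genes of cholesterol and fatty acid synthesis. Smpdl3a, a phosphodiesterase related to acid sphingomyelinase, measured 51.5, 48 and 44.9 FPKM at WT stage 2 and 24.6, 20.8 and 15.2 at WT stage 3. Smpdl3a fell by 1.24 on the log2 scale (SE 0.18, limma adjusted p = 0.04). Abca1, which exports cholesterol, measured 30.2, 25.1 and 25.6 FPKM at WT stage 2 and 16, 13.4 and 13.8 at WT stage 3. Abca1 fell by 0.86 on the log2 scale (SE 0.12, limma adjusted p = 0.0343). The median log2 fold change of the synthesis list was -0.07 and that of the 58 genes of fatty acid oxidation and lipid handling -0.15.

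Glycolysis and respiration lists held 1 call. Of 38 glycolysis and pentose phosphate genes 15 (39.5%) were lower and 3 (7.89%) higher without overlap, with a median of -0.32, and Pgk1, phosphoglycerate kinase, was the single call, at 38, 36.9 and 44.4 FPKM at WT stage 2 and 23, 22.2 and 18 at WT stage 3. Pgk1 fell by 0.89 on the log2 scale (SE 0.13, limma adjusted p = 0.0402). Ldha, lactate dehydrogenase A, measured 44.6, 53.1 and 47.5 FPKM at WT stage 2 and 25.7, 37.5 and 23.1 at WT stage 3. Ldha had a log2 fold change of -0.76 (SE 0.19, limma adjusted p = 0.142). Slc2a1 and Slc2a3, which encode glucose transporters, were higher without overlap, at 3.07, 4.27 and 5.35 FPKM at WT stage 2 and 5.47, 10.4 and 7.68 at WT stage 3 and at 3.79, 3.16 and 3.53 FPKM at WT stage 2 and 6.4, 12.1 and 7.03 at WT stage 3 (limma adjusted p = 0.319 and limma adjusted p = 0.133). None of 74 nuclear oxidative phosphorylation genes passed limma's adjusted p and 17 had an unadjusted p under 0.05, 16 of them lower, and 21 (28.4%) were lower and 1 higher without overlap. Of these 74 genes 65 (87.8%) had a lower mean in WT stage 3, beside 55.3% of all genes with a mean of at least 1 FPKM, and the list median was -0.34. Atp5g3, an ATP synthase subunit, measured 17.2, 15.7 and 15.2 FPKM at WT stage 2 and 11.3, 10.6 and 11.1 at WT stage 3, a log2 difference of -0.51 (SE 0.10, limma adjusted p = 0.0786), and Cox5b of cytochrome oxidase measured 33.5, 39.8 and 30.6 FPKM at WT stage 2 and 22.8, 22.5 and 19.4 at WT stage 3. Cox5b had a log2 fold change of -0.65 (SE 0.13, limma adjusted p = 0.0787). None of 31 tricarboxylic acid cycle genes passed limma's adjusted p, and 6 had an unadjusted p under 0.05, 5 of them lower. That lay near the share of all genes with a mean of at least 1 FPKM, 10.8% lower and 7.31% higher. Among the 6 was Pdha1, a pyruvate dehydrogenase subunit, with a log2 difference of -0.59 (SE 0.14, limma adjusted p = 0.124). The list median was -0.17.

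These medians, and that of all genes, moved with the scale of the data. The TPM scale divides each library by its FPKM sum, of which the top gene model held 62.9% to 69.8% in the WT libraries. The median log2 fold change of all genes with a mean of at least 1 FPKM was -0.05 in FPKM as deposited, -0.14 on the TPM scale and 0.01 after a common upper quartile. On those 2 scales the oxidative phosphorylation median was -0.44 and -0.28, the glycolysis median -0.39 and -0.26, and the amino acid median -0.34 and -0.21. Each lay below the median of all genes with a mean of at least 1 FPKM on the same scale. The sums of dividing-cell markers given above were lower in WT stage 3 along with these lists, and their part was not tested. Reads that hit more than a pair of loci were not used, and Gapdh, a glycolysis gene with many processed copies, was listed at 9.06, 10.8 and 8.6 FPKM at WT stage 2 and 6.84, 8.75 and 6.5 at WT stage 3.

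Among 60 mTOR, AMPK and autophagy regulators 0 passed limma's adjusted p, with 9 at an unadjusted p under 0.05 and a median of -0.02. Of the 9, 4 were lower, beside 10.8% lower and 7.31% higher of all genes with a mean of at least 1 FPKM. Mtor and Tsc1 overlapped between the stages, at 8.38, 6.55 and 7.38 FPKM at WT stage 2 and 6.76, 6.56 and 7.69 at WT stage 3 for the kinase and at 3.24, 4.52 and 2.72 FPKM at WT stage 2 and 4.4, 4.15 and 4.1 at WT stage 3 for its inhibitor Tsc1. Ddit4, or REDD1, an inhibitor of mTORC1 induced by stress, was lower without overlap at 19.5, 23.9 and 26.2 FPKM at WT stage 2 and 3.89, 8.6 and 13.3 at WT stage 3. Ddit4 had a log2 fold change of -1.46 (SE 0.39, limma adjusted p = 0.169). Rragd, a GTPase that brings mTORC1 to lysosomes, measured 0.39, 0.30 and 0.39 FPKM at WT stage 2 and 2.61, 1.14 and 2.23 at WT stage 3 (limma adjusted p = 0.122).

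Signalling genes below the T cell receptor held 4 calls among 73 (5.48%, beside 1.67% of all genes tested), with a median log2 fold change of 0.04. Ubash3a, or STS-2, which dampens T cell receptor signals, measured 3.22, 2.28 and 3.57 FPKM at WT stage 2 and 14.1, 16.2 and 17.6 at WT stage 3. Ubash3a rose by 2.09 on the log2 scale (SE 0.18, limma adjusted p = 0.0118). Ptpn4, a tyrosine phosphatase, measured 2.95, 3.84 and 3.05 FPKM at WT stage 2 and 9.77, 8.66 and 10.5 at WT stage 3. Ptpn4 rose by 1.32 on the log2 scale (SE 0.16, limma adjusted p = 0.0261). Themis (ENSMUSG00000049109, mm10 chromosome 10, 28668360 to 28883818, plus strand), which thymocytes need for positive selection, measured 7.6, 3.39 and 6.37 FPKM at WT stage 2 and 0.53, 0.10 and 0.45 at WT stage 3. Themis fell by 2.28 on the log2 scale (SE 0.34, limma adjusted p = 0.0412). Dgkz, a diacylglycerol kinase that limits Ras activation, measured 57.5, 56.3 and 57.3 FPKM at WT stage 2 and 39.3, 39.2 and 39.3 at WT stage 3, a log2 difference of -0.53 (SE 0.07, limma adjusted p = 0.0279), a small difference between very even libraries. The core kinases Lck and Zap70 overlapped between the stages, at 119.97, 111 and 109 FPKM at WT stage 2 and 122, 104 and 93 at WT stage 3 for Lck and 67.1, 69.4 and 66 FPKM at WT stage 2 and 64.8, 68.9 and 65.5 at WT stage 3 for Zap70. Fyn, which acts with SLAM receptors, was slightly lower without overlap at 59.1, 59.1 and 58.3 FPKM at WT stage 2 and 52.6, 51.8 and 48.7 at WT stage 3 (limma adjusted p = 0.286), and its adaptor Sh2d1a, or SAP, overlapped at 3.82, 4.76 and 3.97 FPKM at WT stage 2 and 4.76, 4.02 and 1.83 at WT stage 3.

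PI3K genes included 1 of the largest rises. Pik3ap1 (ENSMUSG00000025017, mm10 chromosome 19, 41274218 to 41385070, minus strand), the adaptor BCAP that links receptors to PI3K, measured 3.08, 8.08 and 3.35 FPKM at WT stage 2 and 48.4, 50.7 and 40.8 at WT stage 3. Pik3ap1 rose by 3.12 on the log2 scale (SE 0.32, limma adjusted p = 0.0178). Pik3cd, the p110-delta catalytic subunit of lymphocytes, measured 48.2, 45.1 and 43.5 FPKM at WT stage 2 and 70.1, 69.2 and 66.8 at WT stage 3. Pik3cd rose by 0.58 on the log2 scale (SE 0.08, limma adjusted p = 0.0295). Both were higher in each WT stage 3 library, and the other 37 of the 39 members tested were not called, among them the kinase Sgk1 at 1.99, 5.58 and 2.86 FPKM at WT stage 2 and 14.3, 15.4 and 12.2 at WT stage 3 (limma adjusted p = 0.0553).

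In the MAP kinase list 3 of 75 members (4%) were called, beside 1.67% of all genes tested. Mapk11, or p38-beta, was listed at 6.46, 6.34 and 6.78 FPKM at WT stage 2 and 0.15, 0.15 and 0 at WT stage 3. Mapk11 fell by 2.78 on the log2 scale (SE 0.21, limma adjusted p = 0.00843). Map4k4, an upstream kinase, measured 38.3, 45 and 50.1 FPKM at WT stage 2 and 24.8, 26.1 and 25.9 at WT stage 3, a log2 difference of -0.77 (SE 0.11, limma adjusted p = 0.0419), and Rasal3, a GTPase-activating protein for Ras, measured 55, 53.8 and 57.2 FPKM at WT stage 2 and 75.6, 73.5 and 77.9 at WT stage 3. Rasal3 rose by 0.44 on the log2 scale (SE 0.07, limma adjusted p = 0.0472). Of 19 JAK and SOCS genes Socs2, a feedback inhibitor of cytokine receptors, was called, at 0.08, 0.19 and 0.12 FPKM at WT stage 2 and 1.12, 1.17 and 1.28 at WT stage 3. Socs2 rose by 0.96 on the log2 scale (SE 0.13, limma adjusted p = 0.0343). Jak1, higher without overlap, measured 86.6, 98.3 and 89.8 FPKM at WT stage 2 and 120.32, 109.86 and 107 at WT stage 3 (limma adjusted p = 0.222).

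G protein, cyclic nucleotide and calcium genes held 3 risers and 1 faller among 117 (3.42%), beside 1.67% of all genes tested. Rgs1, which shortens chemokine receptor signals, measured 3.57, 3.88 and 3.06 FPKM at WT stage 2 and 12.5, 18.4 and 14.3 at WT stage 3. Rgs1 rose by 1.82 on the log2 scale (SE 0.18, limma adjusted p = 0.0163). Ppp3cc, a catalytic subunit of calcineurin, measured 7.95, 4.92 and 7.27 FPKM at WT stage 2 and 24.1, 23.6 and 26.9 at WT stage 3. Ppp3cc rose by 1.77 on the log2 scale (SE 0.18, limma adjusted p = 0.0176). Efhd2, an EF-hand calcium-binding protein, measured 46.4, 50.7 and 40.5 FPKM at WT stage 2 and 119, 126 and 103 at WT stage 3. Efhd2 rose by 1.32 on the log2 scale (SE 0.12, limma adjusted p = 0.0128). Nrgn, or neurogranin, which binds calmodulin, was the faller, at 20.8, 30.4 and 32.8 FPKM at WT stage 2 and 0.17, 2.69 and 1.17 at WT stage 3. Nrgn fell by 3.76 on the log2 scale (SE 0.44, limma adjusted p = 0.0237). Calcium-linked genes were thus called in both directions, and the list median was 0.02.

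NF-kB regulators and survival genes held 1 call among 72 (1.39%), near the share of all genes. Ikbke, a kinase of the IKK family, measured 14.3, 14 and 16.6 FPKM at WT stage 2 and 6.99, 8.22 and 7.97 at WT stage 3. Ikbke fell by 0.87 on the log2 scale (SE 0.12, limma adjusted p = 0.0383). Bcl2, the survival factor, was higher without overlap at 7.17, 11.6 and 15.4 FPKM at WT stage 2 and 33.8, 28.4 and 49.6 at WT stage 3 and did not pass the adjusted p. Bcl2 had a log2 fold change of 1.65 (SE 0.31, limma adjusted p = 0.074). Bcl2l11, its pro-apoptotic antagonist BIM, was higher without overlap as well, at 1.1, 3.84 and 3.62 FPKM at WT stage 2 and 5.89, 6.49 and 9.49 at WT stage 3 (limma adjusted p = 0.249).

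**Figure D5:**
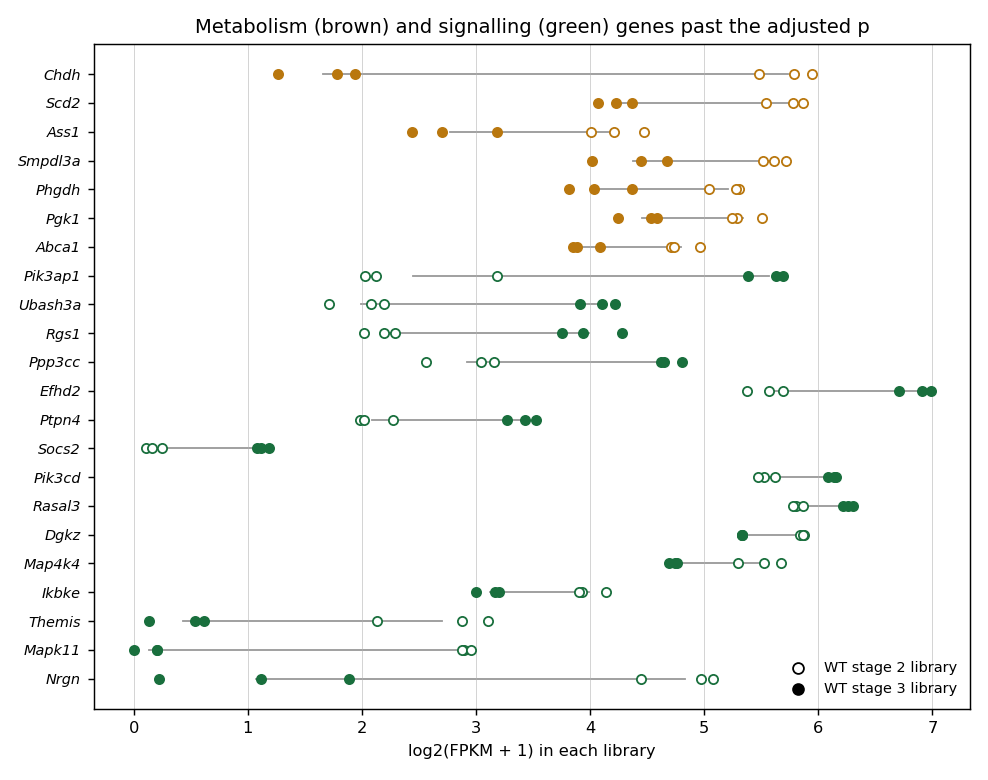
Level of the 7 metabolism genes (brown) and 15 signalling genes (green) past the adjusted p in each library, as log2(FPKM + 1) on the horizontal axis, with WT stage 2 libraries as open circles, WT stage 3 libraries as filled circles and a line between the stage means. The 7 metabolism genes and the last 6 signalling genes are lower in WT stage 3, and the first 9 signalling genes are higher.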

How the data were processed

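RNA of thymic iNKT cells was sequenced from libraries of total RNA, made with a strand-keeping kit for very small inputs. According to the methods and processing notes of the study, the authors trimmed reads with Trimmomatic 0.36, aligned them to mm10 with HISAT2, dropped reads that aligned to more than a pair of places, and quantified GENCODE vM12 genes with StringTie. The FPKM values were deposited by the authors for 21883 genes and each replicate, to 2 decimals. Counts were not used and depth is unknown, so no counting interval is given. In its place, 15584 to 17151 genes lay above 0 FPKM per WT library. The study states independent experiments, and the labels do not say which mice gave which library, so p-values measure the spread between these libraries.

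For the 20689 genes above 0 FPKM in at least 1 WT library, log2(FPKM + 1) of WT stage 3 and WT stage 2 was compared with limma 3.58.1 in R 4.3.3 (eBayes with trend). Fold changes are on the log2(FPKM + 1) scale with a pseudocount of 1, which understates changes of low genes. No fold is given against a stage at 0 throughout. Rose, fell and called mean that the p adjusted by Benjamini and Hochberg over all genes tested did not exceed 0.05. With 3 libraries a stage, no exact permutation p can go below 0.1. The step was tested on simulated data. The members, gene lists and tests were chosen with earlier results of these data known. Genes are named by these rules: up to 5 increases and 5 decreases per group among called genes with a 2-fold change, a mean of at least 1 FPKM and no overlap, likewise among genes in no list, and a set of genes known from iNKT biology, of which some are not reported here. Lists with few such genes show up to 2 more members. All further genes were picked after their values were seen. Of 1252 list genes, 1179 were in the table by symbol or older symbol. Upstream windows came from RefSeq. Figures were drawn with Python 3.11.15 and matplotlib 3.10.9.

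Alternatives tried were a pseudocount of 0.1 or 0.01, only genes with a mean of at least 1 FPKM, the TPM scale, a common upper quartile, limma without the trend, a gene-by-gene linear model with library size as a covariate (Ballgown-style), all 9 libraries, the replicate number as a block, and each library left out.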

Additional observations from a re-analysis of the deposited data

How the results depend on the processing

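The direction of the 80 called list members was kept in all 15 alternatives. Only the TPM scale, the common upper quartile and the Ballgown-style model could have turned it, because the stages did not overlap for these members. Genes past an adjusted p of 0.05 numbered 346 as reported, 368 and 337 with pseudocounts of 0.1 and 0.01, 496 among genes with a mean of at least 1 FPKM, 224 on the TPM scale (86 higher), 337 at a common upper quartile, 420 without the trend, 600 with all 9 libraries (244 higher and 356 lower) and 5 in the Ballgown-style model (4 higher and 1 lower). Of the called, 45.4% were higher as reported, 38.4% on the TPM scale and 53.4% at a common upper quartile. The TPM scale rests mainly on the top gene model of each library, as given above. Under the 2-fold and unadjusted p thresholds the 745 genes (351 higher, 394 lower) became 1423 (671 and 752) with a pseudocount of 0.1 and 1452 (691 and 761) with 0.01. Called transcription factors, metabolism and signalling genes numbered 22, 11 and 29 among genes with a mean of at least 1 FPKM and 24, 14 and 29 with all 9 libraries. In the Ballgown-style model 0 members were called in each of the 4 groups. With 1 library left out, 22 to 137 genes passed (12 to 65 higher, 10 to 75 lower), namely 130, 137 and 35 without WT stage 2 replicates 1, 2 and 3 and 76, 41 and 22 without WT stage 3 replicates 1, 2 and 3, with 8 to 28 surface receptors, 0 to 8 transcription factors, 1 to 3 metabolism and 0 to 9 signalling genes. The cause was not tested beyond the fewer libraries in those fits. Among genes named without a call, Myc (-0.14) changed sign in the Ballgown-style model and Zap70 (0.0443) at the upper quartile, and with 1 library left out Cxcr6 ran from -0.739 to 0.0715, Sh2d1a from -0.455 to 0.0574 and Mtor from -0.15 to 0.00622.

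The labels give both stages replicate numbers 1 to 3. Deviations from the stage means correlated between same-numbered libraries with r of 0.0823, 0.0334 and 0.154 across genes, which are not independent replicates. Every library correlated best with its own number, a hint from the data alone, but not every pair passed 0.1, and the libraries were not treated as paired. Under the replicate block 19 genes passed the adjusted p (15 higher and 4 lower), all among the 346, with 7 surface receptors, 0 transcription factors, 2 metabolism genes and 1 signalling gene.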

Other observations

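Outside the lists, Gzmb, Prf1 and Gzma, which encode proteins of cytotoxic granules, rose. Gzmb, for granzyme B, measured 11.3, 14.4 and 10.2 FPKM at WT stage 2 and 149, 211 and 164 at WT stage 3. Gzmb rose by 3.76 on the log2 scale (SE 0.18, limma adjusted p = 0.00368). Prf1, for perforin, measured 2.01, 3.79 and 2.01 FPKM at WT stage 2 and 17.1, 14.7 and 17.5 at WT stage 3. Prf1 rose by 2.31 on the log2 scale (SE 0.22, limma adjusted p = 0.016). Gzma, for granzyme A, was listed at 0, 0 and 1.5 FPKM at WT stage 2 and 41.4, 29.5 and 17.6 at WT stage 3. Gzma rose by 4.41 on the log2 scale (SE 0.47, limma adjusted p = 0.019). Styk1, a kinase-like membrane protein of NK cells, measured 0.24, 1.79 and 0.86 FPKM at WT stage 2 and 20.3, 31.7 and 34.8 at WT stage 3, a log2 difference of 3.97 (SE 0.35, limma adjusted p = 0.0122), and the adaptors Clnk and Scimp rose by 3.1 and 2.87 on the log2 scale (limma adjusted p = 0.0343 and 0.0121). The MHC class I genes H2-K1 and H2-Q6 rose. H2-K1 measured 219, 227 and 195 FPKM at WT stage 2 and 365, 346 and 323 at WT stage 3. H2-K1 rose by 0.69 on the log2 scale (SE 0.10, limma adjusted p = 0.042). H2-Q6 measured 39.7, 51.6 and 51.3 FPKM at WT stage 2 and 119, 108 and 154 at WT stage 3. H2-Q6 rose by 1.4 on the log2 scale (SE 0.17, limma adjusted p = 0.0274). B2m, their common light chain, overlapped between the stages at 1026, 1247 and 926 FPKM at WT stage 2 and 1268, 1045 and 840.08 at WT stage 3. The H2-Q genes are close copies of each other, so how reads were shared among them is uncertain, and Prf1, H2-K1, H2-Q6 and B2m were picked after their values were seen.

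Mki67 and Birc5, genes of dividing cells, fell. Mki67, for the proliferation antigen Ki-67, measured 22.2, 29.7 and 34.8 FPKM at WT stage 2 and 2.25, 7.47 and 1.69 at WT stage 3. Mki67 fell by 2.81 on the log2 scale (SE 0.45, limma adjusted p = 0.049). Birc5, for survivin, was listed at 2.82, 1.58 and 2.83 FPKM at WT stage 2 and 0.29, 0 and 0 at WT stage 3. Birc5 fell by 1.62 on the log2 scale (SE 0.25, limma adjusted p = 0.0445). Of the 16 dividing-cell markers 3 fell by limma's adjusted p, 13 had an unadjusted p under 0.05 and all 16 had a lower mean in WT stage 3. The other decreases named by the rule were Igfbp4, a binding protein of insulin-like growth factors, at 15.5, 19.2 and 27.8 FPKM at WT stage 2 and 0.35, 0.18 and 0 at WT stage 3, a log2 difference of -4.19 (SE 0.27, limma adjusted p = 0.00584), and Smtn, Pcsk1 and Xkrx. Smtn, for the actin-binding smoothelin, was listed at 7.21, 8.54 and 9.72 FPKM at WT stage 2 and 0 in every WT stage 3 library, Pcsk1, for a proprotein convertase, at 6.36, 6.98 and 3.94 FPKM at WT stage 2 and 0 in every WT stage 3 library, and Xkrx at 5.61, 4.14 and 6.93 FPKM at WT stage 2 and 0 in every WT stage 3 library (limma adjusted p = 0.00651, limma adjusted p = 0.0163 and limma adjusted p = 0.0144). Dpp4, for the surface peptidase CD26, measured 14.7, 15.8 and 12 FPKM at WT stage 2 and 4.02, 2.25 and 2.55 at WT stage 3, a log2 difference of -1.96 (SE 0.21, limma adjusted p = 0.0201), and Kcnn4, for a calcium-gated potassium channel, measured 16.2, 13.4 and 21.3 FPKM at WT stage 2 and 3.57, 4.26 and 6.26 at WT stage 3. Kcnn4 fell by 1.66 on the log2 scale (SE 0.24, limma adjusted p = 0.0404). Dpp4, Kcnn4 and Birc5 were picked after their values were seen.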
